A study of Rattus norvegicus with 4 samples.

Results

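Molecular chaperones are proteins that help other proteins fold, assemble and cross membranes. The chaperone genes described here were all genes of the array whose transcript maps to a rat symbol of the HSP70 (Hspa), HSP90 (Hsp90), J-domain (Dnaja, Dnajb, Dnajc), disulfide isomerase (Pdia), small heat shock protein (Hspb) or chaperonin (Cct) families. The genes Hspd1, Hspe1, Hsph1, Tcp1, Calr, Canx, P4hb, Hsf1, Xbp1 and Herpud1 were added by name. They were 87 genes of 16581 named genes on the array and had 111 of its 45598 gene probes. By compartment, 51 act in the cytosol or nucleus, 8 in mitochondria and 20 in the endoplasmic reticulum (ER). A further 3 (Hsf1, Xbp1 and the ER membrane protein Herpud1) were grouped as stress regulators, apart from the compartments. Another 5 were given no compartment. Compartments were assigned from general knowledge of the proteins and not from the data files.

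The arrays measured messenger RNA of NR8383, an established alveolar macrophage line of a normal rat, obtained by lung lavage, that grows partly attached and partly in suspension. All 4 samples were cultures after 20 passages, seeded for 48 h and then kept for 4 h with NRCWE006. This is a preparation of multi-walled carbon nanotubes, dosed at 1 cm2 per cm2. They are replicates 1 to 4 of 1 group, each on 1 array. Unexposed cultures, part of the study's design, were not analysed here, and nothing reported measures what the nanotubes changed. The data show which chaperone transcripts lay above background in exposed cultures and how far their levels varied between the 4 arrays. Variation between arrays combines culture, labelling and hybridisation, which cannot be told apart.

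In the cytosol, HSP70 proteins bind exposed stretches of unfolded proteins, J-domain proteins deliver the clients, HSP90 finishes kinases and receptors, and the ring-shaped CCT chaperonin folds actin and tubulin. Mitochondria have their own HSP70 and a chaperonin with a lid. The ER holds an HSP70 called BiP, lectin chaperones that bind sugar chains, and isomerases that form disulfide bonds. Heat shock factor 1 (HSF1) switches on cytosolic and mitochondrial chaperones, while the factors ATF6 and XBP1 switch on those of the ER. Macrophages make much secretory and lysosomal protein, which passes through the ER.

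Calling a probe on an array required more than 50% of its spots well above background. A gene counted as detected when at least 1 of its probes was called on all 4 arrays. Of the 45598 gene probes, between 4252 and 6476 were called on an array. Of 13 macrophage markers with a probe, 6 were detected, among them Lyz2, Tyrobp and Fcer1g, and none of 23 markers of lung epithelium, endothelium, fibroblasts, lymphocytes and granulocytes was. Csf1r, Itgam, Mrc1, Cd14 and Adgre1, also macrophage markers, were called on no array. Replicate 4 stood apart as an array, with 656 non-uniform gene spots against 17, 9 and 34 on replicates 1 to 3 and a median negative control signal of 4.65 against 2.98 to 3.36. The total count of detected chaperones and several calls that change without it are given both ways. Counts by compartment are given with all 4 arrays only. Levels are log2 signals relative to the 75th percentile of the detected probes of the same array, as mean ± SD over 4 arrays. They compare arrays for 1 probe and do not rank different probes.

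Of the 87 chaperone genes, 20 were detected (23.0%), beside 11.9% of all 16419 named genes measured on all arrays. A further 14 were called on 1 to 3 arrays (16.1%, beside 17.2%) and 53 on none (60.9%, beside 71%). In bulk RNA, fewer cells with a transcript and less of it per cell cannot be told apart. The cytosol had 9 of 51 detected, mitochondria 3 of 8, the ER 5 of 20 and the regulators 2 of 3. The remaining one is Dnajc22, a J-domain protein with several membrane spans.

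**Figure D1:**
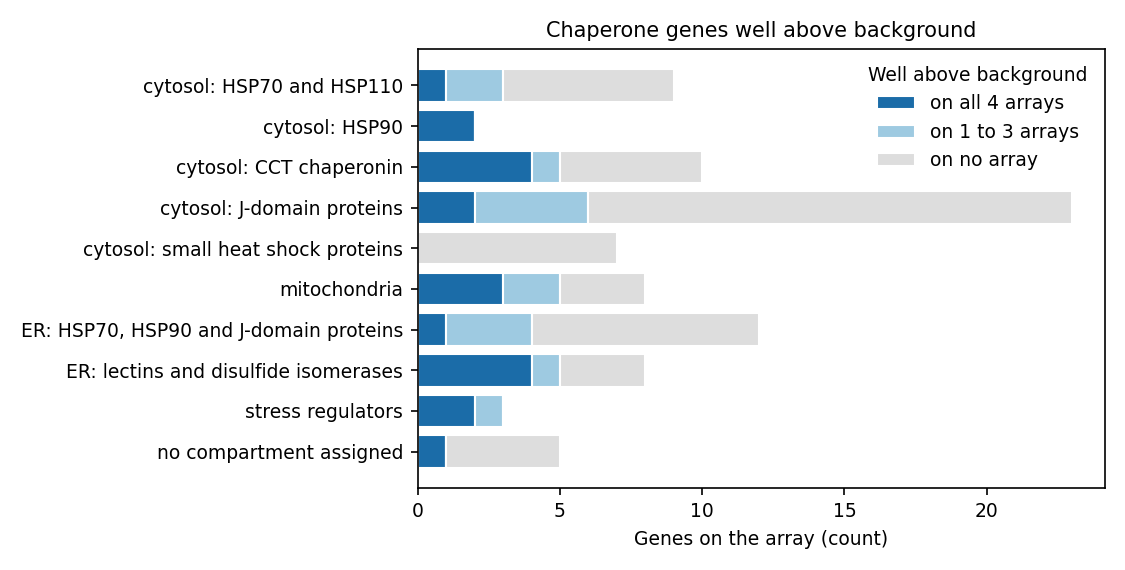
Number of chaperone genes (x axis) in each family and compartment that were detected, were called on 1 to 3 arrays, or were called on none. The CCT chaperonin and the ER lectins and isomerases have 4 genes each in the first class. All 7 small heat shock protein genes chosen by an Hspb symbol are in the last.

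The promoters of these genes carry the sites through which heat shock and ER stress act, and they are shown because they allow the compartments to be compared without the array values. Promoter windows of 300 bases (250 before to 50 after the gene's start) were taken from RefSeq on build GRCr8 and matched 71 of the 87 genes. The heat shock element was searched as GAA, any 2 bases, TTC, any 2 bases and GAA. The ER stress response element was searched as CCAAT, any 9 bases and CCACG, and all searches covered both strands. The ER element was in 5 of 18 ER chaperone windows and in that of Xbp1, beside 0.0657% of all 33469 windows, and in none of 41 cytosolic and 6 mitochondrial ones. It contains the common CCAAT box, which 46.5% of chaperone windows and 37.5% of all windows hold. The sites shown, of 5 genes, carry the element in capitals with 6 bases on either side, written 5′ to 3′ on the strand of the element.
Hspa5 (chr3:38452967-38452997, plus strand): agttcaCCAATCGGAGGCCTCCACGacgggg
Xbp1 (chr14:84604552-84604582, plus strand): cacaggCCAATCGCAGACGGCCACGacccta
Dnajc3 (chr15:102432528-102432558, plus strand): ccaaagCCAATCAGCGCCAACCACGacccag
Hsp90b1 (chr7:23012341-23012371, plus strand): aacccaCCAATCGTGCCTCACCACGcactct
Hsp90b1 (chr7:23012445-23012475, minus strand): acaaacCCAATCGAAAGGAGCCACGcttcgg
Calr (chr19:40213129-40213159, minus strand): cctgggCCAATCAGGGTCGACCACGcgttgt

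The heat shock element was in 4 of 41 cytosolic windows (Hspa8, Hsph1, Dnaja1 and Cct4) and in 2 of 6 mitochondrial ones (Hspd1 and Hspe1), beside 0.798% of all windows, and in none of 18 ER windows. The shorter motif TGACGTGG, a site described for ATF6 and XBP1, was in 3 of 71 chaperone windows and 0.595% of all windows. Of the 6 genes with a heat shock element, Hspa8 and Hspe1 were detected on all 4 arrays, Hspd1 was called on 3, and Hsph1, Dnaja1 and Cct4 were called on none. Hspd1 and Hspe1 carry the same 2 overlapping sites, so the 2 mitochondrial windows hold a single stretch counted for both. The sites are written as above, with the plus-strand member of this pair shown.
Hspa8 (chr8:50080295-50080319, plus strand): gagcgtGAAAGTTCCAGAAcgctgc
Hspa8 (chr8:50080453-50080477, minus strand): gtcttaGAACCTTCCAGAAgggttc
Hspd1 and Hspe1 (chr9:64084261-64084285, plus strand): gttctaGAACCTTCCGGAAggcccc
Hsph1 (chr12:10427326-10427350, minus strand): tgaggaGAACTTTCCAGAAtctgcg
Dnaja1 (chr5:60638407-60638431, plus strand): cgggcgGAACTTTCCAGAAcgctcg
Cct4 (chr14:101193076-101193100, minus strand): ctccacGAACCTTCCAGAAagcgac
A match describes letters in the window and is not a site of measured binding.

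Cytosolic HSP70 was represented by Hspa8, which encodes HSC70, the HSP70 that cells make without stress. Its brightest probe had levels of 2.83, 2.66, 2.85 and 3.00 on replicates 1 to 4 (2.84 ± 0.14, SD, n = 4), so the arrays lay within 1.26-fold. Both further detected probes of Hspa8 were also steady, at 0.87 ± 0.12 and -0.37 ± 0.07, while the fourth, called on 3 arrays, lay at -3.55 ± 0.43. RefSeq lists 33 processed or other pseudogene copies under the name of Hspa8, and signal from near-identical transcripts cannot be told apart from that of the gene. The same holds for Hsp90ab1 with 23 such copies, Hspd1 with 20, Hsp90aa1 with 16 and Cct6a with 14. The Hspa8 promoter window is printed in full, since both heat shock elements (capitals) lie within it, on chr8:50080264-50080563, plus strand.
Hspa8 promoter: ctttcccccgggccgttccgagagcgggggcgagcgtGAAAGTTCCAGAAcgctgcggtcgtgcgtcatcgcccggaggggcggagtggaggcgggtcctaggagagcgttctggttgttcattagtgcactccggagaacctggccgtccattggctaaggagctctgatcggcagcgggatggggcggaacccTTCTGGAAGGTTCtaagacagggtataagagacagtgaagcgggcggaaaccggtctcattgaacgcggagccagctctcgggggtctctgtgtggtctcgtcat

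Several stress-inducible genes of the cytosol were called on no array. Hspa1a, the HSP70 that heat and oxidants induce, had 2 probes, neither called on any array. The signals of its brighter probe were 3.44, 3.56, 2.77 and 5.39 on replicates 1 to 4, where the lowest signal of any called probe was 12.8, 13.5, 13.7 and 18.0. Hspb1, which encodes the small heat shock protein HSP27, was measured by a probe printed 10 times and had 0 spots well above background on every array. Its signals of 3.56, 2.91, 3.23 and 4.40 lay near the median negative control signals of 3.36, 2.98, 3.31 and 4.65. Hsph1, the nucleotide exchange factor HSP110, and all 7 small heat shock protein genes chosen by an Hspb symbol were likewise called on no array. Cryab, a small heat shock protein gene without such a symbol, was called on 3 arrays. A gene not well above background has only an upper bound on these arrays, not a level of 0.

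Other HSP70 genes were near the limit. Hspa14, a ribosome-associated HSP70, was called on replicates 1 to 3 with signals of 42.7, 35.2 and 28.3, and not on replicate 4 with 18.0. Hspa4, a nucleotide exchange factor, was called on replicate 1 alone, where its single spot had a signal of 21.0 against 3.25 to 4.60 elsewhere. Hspa12a, Hspa1l, Hspa2 and Hspa4l were called on no array.

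Both cytosolic HSP90 genes were detected, each by 2 probes. Hsp90ab1, the constitutive form, was among the steadiest members, with 0.95, 1.04, 0.88 and 0.97 on replicates 1 to 4 (0.96 ± 0.06, SD, n = 4). Hsp90aa1, the inducible form, had -1.89, -1.86, -1.37 and -1.48 (-1.65 ± 0.26). Replicates 3 and 4 were the higher pair, 1.44-fold between the extremes. Its second probe was also highest on replicate 3, with -3.02, -2.78, -1.84 and -2.56. The second probe of Hsp90ab1 varied more than the first, at -1.65 ± 0.29.

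The CCT chaperonin is a ring of 8 different subunits that act together, yet its genes split on the array. Cct3, Cct7, Cct6a and Tcp1, which encodes the first subunit, were detected. Cct5 was called on replicates 1 and 2, and Cct2, Cct4 and Cct8 were called on no array, as were the testis-type Cct6b and Cct8l2. Every subunit that was called on no array has 1 probe. Cct6a shows how much the probe decides, since its second probe was called on no array. Probe differences cannot be told apart from differences between subunits here.

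Cct3 had 0.10, 0.21, 0.25 and 0.18 on replicates 1 to 4, and its spread of 0.18 ± 0.06 (SD, n = 4) was the lowest of the detected chaperones. Arrays did not differ for it beyond the noise between spots (adjusted p = 0.319, limma F test over arrays). Cct7 had -0.26, -0.32, -0.05 and -0.29 and differed (adjusted p = 0.00263, limma), with replicate 3 highest by a small margin. Without replicate 3 the adjusted p of Cct7 was 0.761 (limma). Cct6a had -2.21, -2.43, -2.11 and -2.69 (adjusted p = 8.96e-06, limma), and its extremes lay 1.49-fold apart. Tcp1, on a single spot per array and thus not in this test, had -0.40, -0.83, -0.20 and -0.79.

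Of 23 cytosolic or nuclear J-domain genes, only Dnajc2 and Dnajc8 were detected. Dnajc2 encodes a J-domain protein of the ribosome exit site and had -2.62, -2.59, -2.17 and -2.54 on replicates 1 to 4 (adjusted p = 4.4e-05, limma), with replicate 3 above the rest and adjusted p = 0.767 without it. Dnajc8, a factor linked to the spliceosome, had -0.71, -0.79, -0.53 and -1.05. Dnajc9, which also binds histones, was called on replicates 1 to 3 at -3.32, -3.44 and -3.47 and not on replicate 4 at -5.48. Dnajc7, an HSP70 and HSP90 co-chaperone, and Dnajc5g were called on replicate 4 alone, and Dnajc17 on replicate 3 alone. These 3 rest on 1 spot per array. Dnaja1, Dnaja2, Dnajb6 and the other 14 genes of the set were called on no array.

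**Figure D2:**
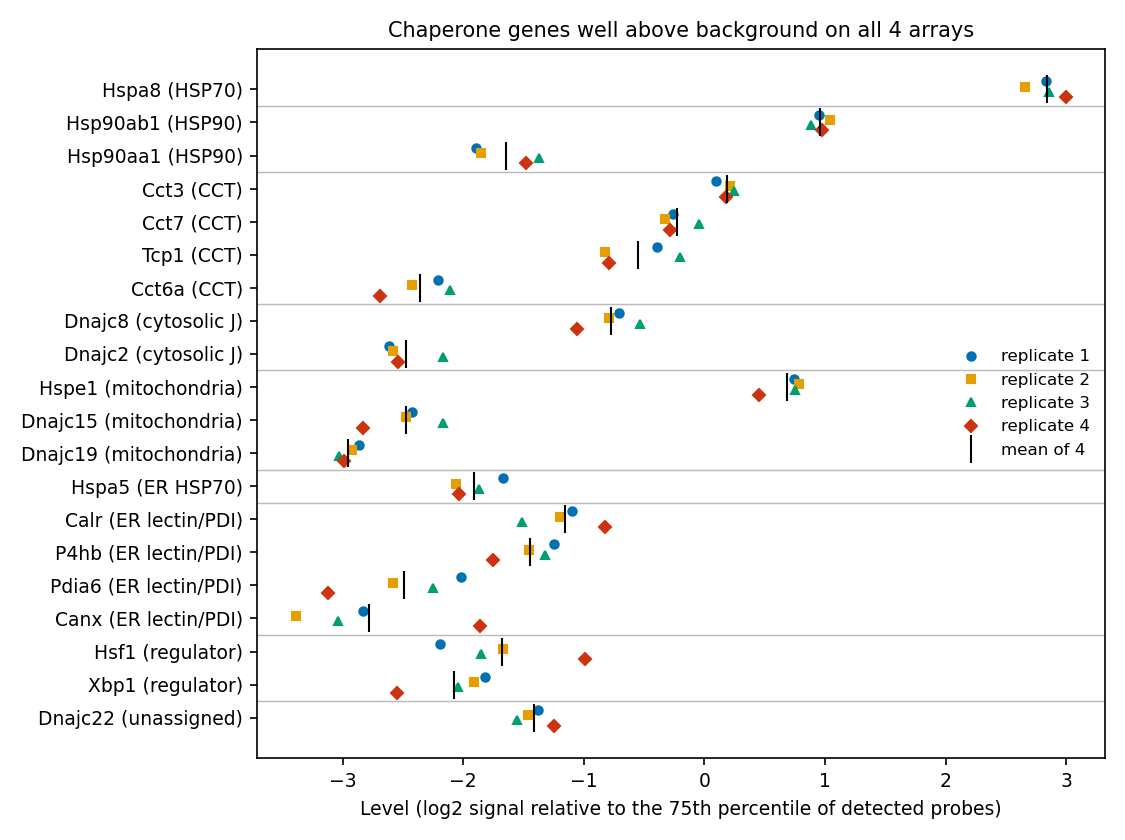
Level on each array (log2 signal relative to the 75th percentile of detected probes, x axis) of the 20 chaperone genes detected on all 4 arrays, ordered by family. Symbols are the 4 replicates and the black line is their mean. Hspa8 lies near 2.84 on every array, while Canx, Pdia6 and Hsf1 are the 3 genes that range over 2-fold.

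In mitochondria, the clearest member was Hspe1, which encodes HSP10, the lid of the mitochondrial chaperonin. It has 2 probes, each printed 10 times. The brighter gave 0.75, 0.79, 0.75 and 0.45 on replicates 1 to 4, and the dimmer gave -0.08, -0.27, -0.16 and -0.63. Both were lowest on replicate 4, with adjusted p = 0.000108 and 7.49e-08 (limma F test over arrays), and the extremes lay 1.26-fold and 1.46-fold apart. Without replicate 4 the adjusted p was 0.813 for the brighter probe and 0.0314 for the dimmer (limma). With the median shift of detected genes subtracted, replicate 4 minus the mean of replicates 1 to 3 was -0.24 and -0.38. After quantile normalization the brighter probe was at 0.08 on that scale and the dimmer at -0.16.

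Hspd1, which encodes HSP60, the barrel of the same chaperonin, pointed the same way at a lower signal. Its probe printed 10 times had -2.37, -2.76, -2.23 and -3.23 on replicates 1 to 4 (adjusted p = 0.000654, limma) and was called on replicates 1 to 3. On replicate 4, 4 of the 9 spots used were well above background. For Hspd1 the adjusted p was 0.0836 with non-uniform and outlier spots kept and 0.0674 without replicate 4 (limma). Both further probes of Hspd1 were called on no array.

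Hspd1 and Hspe1 lie head to head, and their promoter windows share 211 bases. The shared part holds 2 overlapping heat shock elements, 1 on each strand, printed as a single run of capitals in the Hspe1 window on chr9:64084077-64084376, plus strand.
Hspe1 promoter: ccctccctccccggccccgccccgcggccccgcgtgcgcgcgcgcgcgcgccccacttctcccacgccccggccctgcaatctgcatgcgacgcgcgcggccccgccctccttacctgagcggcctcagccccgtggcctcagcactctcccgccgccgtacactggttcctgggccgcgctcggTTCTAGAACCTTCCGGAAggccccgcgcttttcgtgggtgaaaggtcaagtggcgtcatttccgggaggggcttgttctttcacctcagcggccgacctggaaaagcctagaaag

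Hspa9, the mitochondrial HSP70 mortalin, was called on replicates 1 to 3 at -2.83, -3.63 and -2.86 and not on replicate 4 at -3.98. Its second probe, called on replicate 1 alone, had -4.39, -4.56, -3.98 and -3.87 on replicates 1 to 4, highest on replicate 4. Dnajc15 and Dnajc19, J-domain proteins of the inner membrane import motor, were detected on single spots. Dnajc15 had -2.43, -2.48, -2.16 and -2.83, lowest on replicate 4. Dnajc19 was steady at -2.87, -2.93, -3.03 and -2.99, although its other probe was called on no array. Dnaja3, Dnajc11 and Dnajc30 were called on no array.

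In the ER, Hspa5, which encodes BiP, was the only detected member of the HSP70, HSP90 and J-domain set of 12. It had -1.67, -2.06, -1.87 and -2.04 on replicates 1 to 4 (-1.91 ± 0.18, SD, n = 4), and arrays differed by up to 1.32-fold (adjusted p = 0.00727, limma), with adjusted p = 0.321 without replicate 1. Its window on chr3:38452766-38453065, plus strand, is printed with the ER stress response element in capitals.
Hspa5 promoter: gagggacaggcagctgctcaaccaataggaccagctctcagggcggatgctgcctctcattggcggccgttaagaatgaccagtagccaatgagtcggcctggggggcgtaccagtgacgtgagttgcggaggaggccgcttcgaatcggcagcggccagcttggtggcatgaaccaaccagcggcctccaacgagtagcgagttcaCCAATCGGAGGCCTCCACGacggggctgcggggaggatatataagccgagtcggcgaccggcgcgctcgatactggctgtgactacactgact

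The ER HSP90 gene Hsp90b1 (GRP94) was called on no array, with signals of 16.9, 11.1, 5.92 and 7.31 on replicates 1 to 4. Its probe is printed 2 times, and its signal on replicate 1 exceeded the lowest of any called probe there, 12.8. Dnajb9, a BiP co-chaperone induced by ER stress, lay at 3.82, 3.19, 3.45 and 5.04, near the negative control spots. Dnajb11, which feeds clients to BiP, was called on replicates 1 and 4, Dnajb12 on replicate 1 and Dnajc14 on replicate 4. The other 6 genes of this set, among them Dnajc10 and Dnajc3, were called on no array.

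Lectin chaperones and isomerases were detected in 4 of 8 cases. Calr, the soluble lectin calreticulin, had -1.09, -1.20, -1.51 and -0.82 on replicates 1 to 4. Canx, its membrane-bound relative calnexin, had -2.83, -3.39, -3.04 and -1.86. Both were highest on replicate 4, and Canx ranged over 2.88-fold, the widest of the detected chaperones. Canx rests on a single spot per array, with a software error of the signal of 11.7% to 21.5%, and its other probe was called on no array.

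Both detected isomerases were lowest on replicate 4. P4hb, the classical protein disulfide isomerase, had -1.25, -1.46, -1.32 and -1.75 (adjusted p = 1.4e-05, limma). The call of P4hb was lost without replicate 4 (adjusted p = 0.111, limma) and with normexp (adjusted p = 0.152, limma). Pdia6 had -2.02, -2.58, -2.25 and -3.12 (adjusted p = 1.67e-08, limma), a range of 2.15-fold over spots printed 10 times. It still differed without replicate 4 (adjusted p = 0.0028, limma). With normexp, replicate 4 minus the mean of the others was -0.11 for both Pdia6 and P4hb. For the levels given above it was -0.84 for Pdia6 and -0.41 for P4hb. With the median shift of detected genes subtracted, both were at -0.18 with normexp, against -0.77 and -0.34 for the levels above. Without replicate 4 no detected chaperone ranged over 2-fold. A range over fewer arrays can only be equal or smaller, and the share of all detected genes was not counted there. Pdia3 was called on replicates 1 to 3 with signals of 36.2, 21.6 and 18.4, and not on replicate 4 with 16.0. Pdia2, Pdia4 and Pdia5 were called on no array. The 5 detected ER genes therefore did not share 1 direction on replicate 4, where Calr and Canx were higher and Hspa5, P4hb and Pdia6 lower than the mean of the other arrays.

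**Figure D3:**
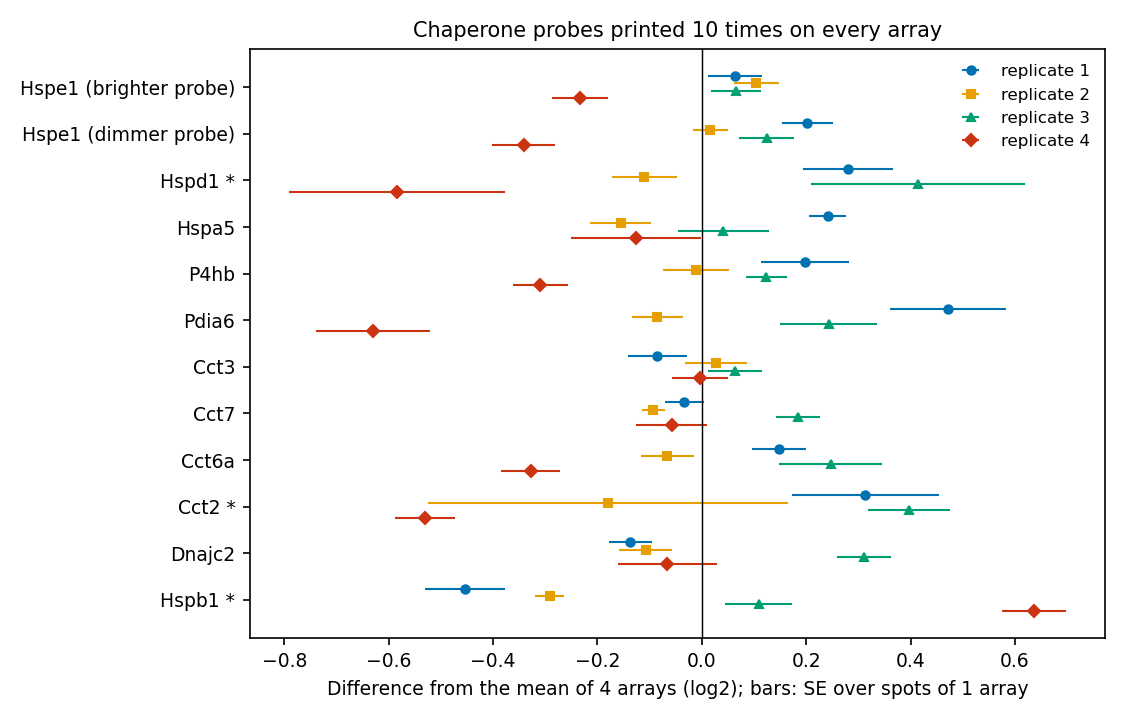
Difference of each array from the mean of the 4 arrays (log2, x axis) for the 12 chaperone probes printed 10 times, with the SE over the spots of 1 array. An asterisk marks a probe not called on all 4 arrays. Replicate 4 is lowest for both Hspe1 probes, Hspd1, P4hb, Pdia6, Cct6a and Cct2, and replicate 3 is highest for Cct2, Cct3, Cct6a, Cct7, Dnajc2 and Hspd1.

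Among the regulators, Hsf1 had -2.20, -1.67, -1.85 and -0.99 on replicates 1 to 4, and replicate 4 was highest in a 2.31-fold range. It too rests on 1 spot, and its second probe was called on no array. Xbp1 had -1.82, -1.91, -2.04 and -2.55, lowest on replicate 4. Herpud1, an ER membrane protein of protein disposal, was called on replicates 1 to 3 at -2.58, -2.67 and -2.65 and not on replicate 4 at -3.27. Dnajc22 was steady at -1.38, -1.47, -1.55 and -1.25.

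Counted over the test, arrays differed for 8 of 9 chaperone probes that were printed 10 times and called on all arrays, beside 74.6% of 709 such probes of the array (limma F, adjusted p below 0.05). A difference and a range over 2-fold were found together in 1 of the 9 (Pdia6), beside 4.94% of the 709. The residual of this test is the noise between spots of 1 array. Of all 12 chaperone probes 11 differed, beside 81% of 1350 probes, with Cct2 and Hspb1 near or at background among them. The test compares arrays and cannot tell a culture from its labelling or hybridisation. Between 8 and 11 of all 12 chaperone probes differed when replicate 1, 2 or 3 was left out and 7 when replicate 4 was, against 11 with all arrays. Of all 1350 probes, 72.1% to 77.6% differed without replicate 1, 2 or 3 and 67.5% without replicate 4.

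The spread of the detected chaperones was close to that of detected genes in general. Their median SD over 4 arrays was 0.221, between 0.0633 for Cct3 and 0.653 for Canx, beside a median of 0.241 over 1946 detected genes. On probes printed 10 times the medians were 0.196 for 8 chaperones and 0.195 for 353 genes. Of the 20 chaperones, 3 ranged over 2-fold (15.0%), beside 15.3% of detected genes. By compartment the median SD was 0.209 over 9 cytosolic, 0.157 over 3 mitochondrial and 0.285 over 5 ER genes. Members that were not detected on all arrays could not enter these values.

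**Figure D4:**
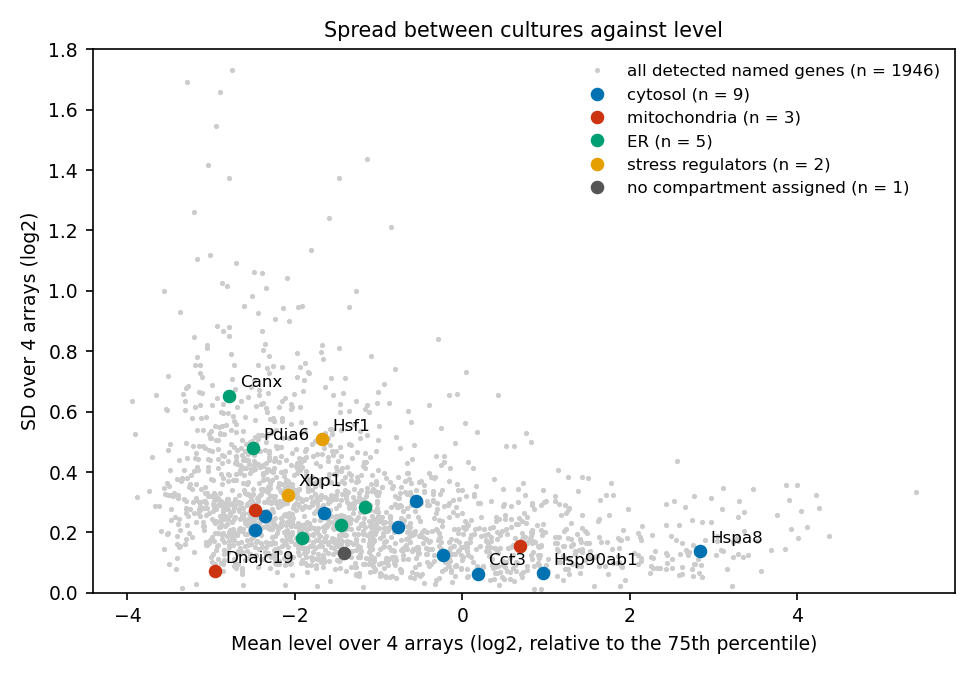
SD over the 4 arrays against mean level (both log2) for all 1946 detected named genes in grey and the 20 detected chaperones in colour by compartment. The chaperones lie among the other genes, with Cct3, Hsp90ab1 and Dnajc19 near the lower edge and Canx highest.

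Of the 9 detected cytosolic genes, 7 were highest on replicate 3 (Hsp90aa1, Cct3, Cct6a, Cct7, Tcp1, Dnajc2 and Dnajc8), beside 23.2% of all detected genes. Their median on replicate 3 was 0.32 above the mean of the other arrays, beside 0.01 for all detected genes. The count was 7 after quantile normalization, 5 with normexp and 8 without replicate 4, beside 25.7%, 25.4% and 33.6% of all detected genes. It was 0 without scaling and 3 when scaled by all gene probes, beside 1.28% and 8.53% of all detected genes. Both this count and the share of all detected genes change with scaling between arrays. This grouping was noticed in the same values, and no test of it was made.

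On replicate 4, all 3 detected mitochondrial genes lay below the mean of the other arrays, at -0.47 to -0.05, beside 56.6% of all detected genes. Dnajc19, at -0.05, was above the median of all detected genes on that array, -0.07. Of all 20 detected chaperones, 7 were lowest on replicate 4 (35.0%), beside 39.6% of detected genes. The ER genes were all 5 below that mean on replicate 2 (median -0.11), beside 49.3% of all detected genes. For all 20 detected chaperones the median on replicate 4 was -0.08, beside -0.07 for all detected genes.

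**Figure D5:**
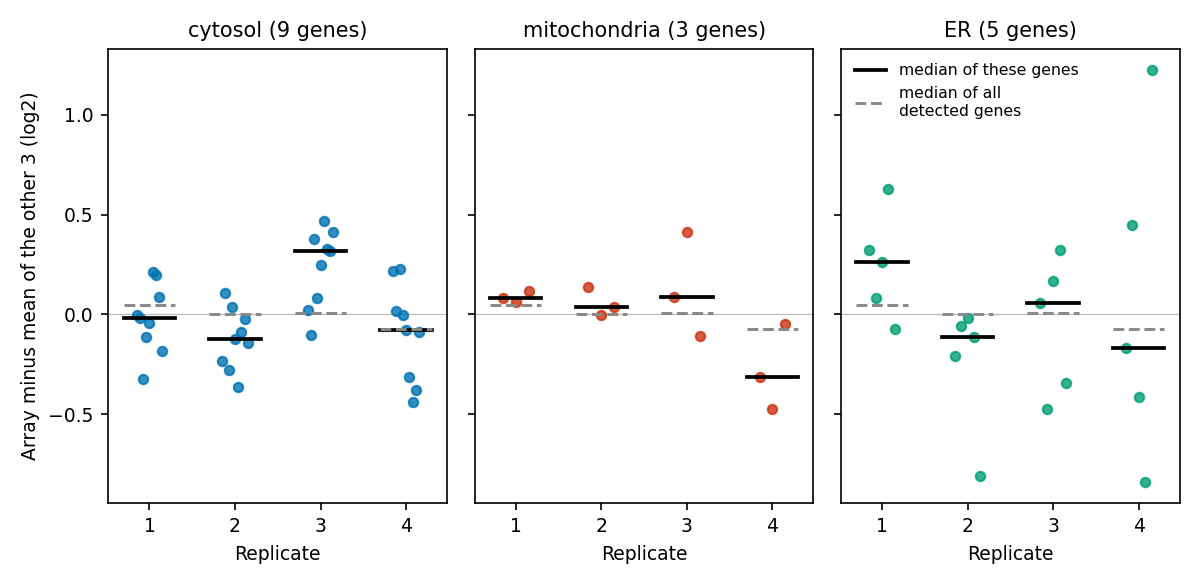
Each array minus the mean of the other 3 (log2, y axis) for the detected genes of 3 compartments, by replicate (x axis). Points are genes, black lines their medians and dashed lines the median of all 1946 detected genes. The cytosolic median on replicate 3 is 0.32 and the mitochondrial median on replicate 4 is -0.31.

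Some calls were missing on replicate 4 only. The 6 genes called on replicates 1 to 3 and not on 4 (6.90% of 87) were Hspd1, Hspa9, Hspa14, Dnajc9, Pdia3 and Herpud1, beside 2.89% of named genes. Those called on replicate 4 alone were 3 (3.45%), beside 7.19%. Replicate 4 had the highest negative control signal and the highest minimum signal among called probes, at 18.0. It also had the most called gene probes, 6476 against 4252 to 5722 on replicates 1 to 3. The part of these array values in the lost calls was not tested. Without replicate 4, 26 chaperone genes were detected (29.9%), beside 14.8% of named genes.

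Chaperones, co-chaperones and stress regulators not chosen by the symbols above were taken from a list of 83 genes. Of these, 74 had a probe and 32 were detected (43.2%, beside 11.9% of all named genes). The median SD of the detected ones was 0.286, beside 0.241 for all detected genes. For the HSP90 cycle, Cdc37, which loads kinases, had a level of 0.61 ± 0.16, the activator Ahsa1 -1.02 ± 0.33, the immunophilin Fkbp4 -0.40 ± 0.29, Ptges3 (p23) -2.37 ± 0.35 and Unc45a -2.95 ± 0.32 (SD, n = 4). Stip1, which joins HSP70 to HSP90, was called on no array. Stub1, the ubiquitin ligase CHIP, was steady at -0.27 ± 0.05. The BAG family genes Bag1, Bag2, Bag3 and Bag6 were detected at -2.08 ± 0.35, -3.45 ± 0.32, -2.61 ± 0.28 and -1.65 ± 0.48.

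In mitochondria, Trap1, the HSP90 of that compartment, had a level of 0.12 ± 0.10, the exchange factor Grpel1 -2.63 ± 0.07, the import receptor Tomm70 -2.86 ± 0.38 and the protease Lonp1 -1.86 ± 0.23 (SD, n = 4). On replicate 4, Trap1 was 0.09 and Lonp1 0.46 above the mean of replicates 1 to 3, while Tomm70 was at -0.39 and Grpel1 at -0.07. The mitochondrial genes of this list, Trap1 among them as a chaperone, thus did not all share the direction of Hspe1.

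In the ER, Sdf2l1, a BiP partner induced by ER stress, was detected at 0.77 ± 0.09, and Sil1, the BiP exchange factor, at -2.39 ± 0.40 (SD, n = 4). The translocon gene Sec61a1 lay at -1.10 ± 0.14, Erp29 at -3.02 ± 0.53, and the folding factors Ppib and Fkbp2 at -1.06 ± 0.12 and -0.46 ± 0.33. Of the disposal machinery, Edem1 was at -1.93 ± 0.61, Derl1 at -2.84 ± 0.28, Syvn1 at -2.94 ± 0.24, Vcp at -2.17 ± 0.30 and Nploc4 at -1.86 ± 0.14. Edem1 and Sil1 lay lowest on replicate 4, at -1.15 and -0.79 relative to the mean of the others, while Erp29 lay highest there, at 1.05.

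Of the 3 branches of the unfolded protein response, the sensor Atf6 was detected at -2.71 ± 0.31, while the sensor genes Ern1 and Eif2ak3 were called on no array. Downstream of Eif2ak3, Atf4 lay at -0.95 ± 0.20, Ddit3 (CHOP) at -1.39 ± 0.32, Trib3 at -2.69 ± 0.47 and Ppp1r15a (GADD34) at -2.32 ± 0.16 (SD, n = 4). In the cytosol, the isomerase Ppia was at 0.95 ± 0.19 and the prefoldin subunit Pfdn5 at -1.84 ± 0.23. A further 19 genes of this list, Hyou1 and Cryab among them, were called on 1 to 3 arrays and 23 on none.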

How the data were processed

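Agilent 1-colour arrays were hybridised with Cy3-labelled complementary RNA made from 100 ng of RNA of each of 4 cultures, per the labels' protocols. The deposited processed signal is a spot intensity on a linear scale, and the submitters' processing notes name Agilent Feature Extraction version 11.0.1.1. A background-subtracted signal is listed as well, per the file headers. The processed signal differs from it at most spots, and the steps between them are not given in the sources used here. The 75th percentile of the detected probes was 223 to 384 per array, and log2 signals were set relative to it. All 4 arrays lie on 1 slide, so slide gives no batch to compare. Median signal and background intensities, deposited per the file headers, were used for 1 alternative. Control spots (4259) and spots called non-uniform or population outliers (546 to 1296 per array) were left out, and log2 signals of a probe's spots were averaged. Of the detected probes of a gene, the brightest gave its value. No gene spot was saturated. Accessions without versions were matched to RefSeq (GRCr8), which named 21109 of 45598 probes (46.3%). The headers name an older build, so no probe coordinates are printed. A further promoter match of the ER element is not reported here.

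The F test ran in limma version 3.58.1 (R version 4.3.3) on the 1350 probes printed 10 times, with Benjamini-Hochberg adjustment over all of them, and was tested on simulated data. Python version 3.11.15, numpy version 2.4.6 and pandas version 2.3.3 did the rest. The number of arrays limits precision. Alternatives were another detection rule (95th percentile of negative control spots plus 10%), 3 of 4 arrays, all spots kept, quantile normalization, no scaling, the percentile over all gene probes, normexp (offset 50), the mean of a gene's probes, no filter on dim probes and leaving out each replicate. The genes, lists and rules were chosen with earlier results of these data known. Every detected gene of the families was named, and values on every array were given for all of them. Labels call the samples biological replicates, without saying how the cultures were separated.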

Additional observations from a re-analysis of the deposited data

Results flagged for a closer look

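Of 42 chaperone probes called on at least 1 array, 5 (11.9%) had 1 array far from the other 3, judged by the gap to the nearest value over the whole range (Dixon's 95% criterion). The same held for 18.6% of all 8923 gene probes called on at least 1 array, and chance gives such a gap in about 1 of 20 groups. Replicate 4 was the distant array for 3 of the 5 chaperone probes, beside 90.6% of all such probes. Of probes called on all 4 arrays, 3 of 26 chaperone probes (11.5%) and 7.23% of all 3208 had such a gap. The Dnajc9 level was -5.48 on replicate 4, Herpud1 was at -3.27 there, and the brighter probe of Hspe1 was at 0.45, each below the other arrays. Neither Dnajc9 nor Herpud1 was called on replicate 4, so their values there are not well above background. Replicate 3 was the distant array for Dnajc2, at -2.17, and for the second probe of Cct3, at -1.72, each above the other arrays. Herpud1 rests on 1 spot per array, Dnajc9 and the second Cct3 probe on 2, and the Dnajc2 and Hspe1 probes on up to 10.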

How the results depend on the processing

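The count of detected chaperones was 20 with all spots kept and without replicate 1, 2 or 3, beside 11.9% to 12.3% of named genes. It was 26 (29.9%) when calls on 3 of 4 arrays sufficed and without replicate 4, beside 15.5% and 14.8%. With detection by negative control spots it was 28 (32.2%), beside 20.5%. The median SD of detected chaperones, 0.221, was 0.351 with quantile normalization, 0.458 unscaled and 0.831 with the percentile taken over all gene probes. It was 0.138 with normexp, 0.486 with no filter on dim probes and 0.274 with detection by negative controls. The 3 genes over 2-fold became 7, 11, 19, 0, 47 and 7 in the same order, the last 2 over 87 and 28 genes, beside 34.5%, 52.8%, 92.8%, 2.00%, 72.5% and 33.6% of all genes under the same settings. The median deviation on replicate 4, -0.08, was -0.39, -0.48, -1.65, 0.061 and 0.68 in the first 5, where the median of all genes was -0.40, -0.47, -1.64, 0.077 and 0.81. Leaving out 1 replicate gave median SDs of 0.153 to 0.270 and deviations of -0.14 to -0.06. Counts of genes over 2-fold were then 0 to 3 (1 without replicate 1, 0 without replicate 4). A range over fewer arrays can only be equal or smaller, and the share of all detected genes was not counted for these settings. Of the 12 probes printed 10 times, 11 differed between arrays. With 1 replicate left out 7 to 11 differed, beside 67.5% to 77.6% of all 1350 probes. In the other fits 9 to 12 differed, and the share of all probes was not counted there. A range over 2-fold as well was found for 2, Pdia6 and Hspb1, of which Hspb1 is at background. Cytosolic genes highest on replicate 3 numbered 7 to 8 of 9 with 1 other replicate left out, beside 29.4% to 33.6% of all genes. They numbered 0 without scaling and 3 when scaled by all gene probes, beside 1.28% and 8.53%. That count and the one of genes not called on replicate 4 were examined after seeing the data.

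With normexp, replicate 4 minus the mean of the others turned to 0.073 for Hspa5, 0.20 for Cct2 and 0.15 for Dnajc2. With the shift of all detected genes subtracted these were -0.004, 0.13 and 0.078. For Hspb1, which is at background, it was 0.85 and turned to -0.72 when scaled by all gene probes. That scaling moves every probe alike, and with the shift of all genes subtracted Hspb1 was at 0.92 under both. For the other changes the cause was not tested. No paired analysis was possible because there is 1 group.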
